A study of Homo sapiens with 6 samples.

Results

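The genes described here are those that let a cell sense histamine, make it, clear it and pass the signal on through the Gq protein and calcium. They are 51 genes, chosen by name with earlier results of these data known, and every probe annotated to one of them was taken. Of the 51 genes, 49 had a probe in the annotation used, with 92 probes in all among 47322 probes on the array, and SLC22A3 and CALM3 were not analysed here. A gene was tested when at least 1 of its probes had a detection p-value, the rank of its signal among negative control beads, under 0.05 on at least 3 of 6 arrays. That held for 32 of the 51 genes, with 46 kept probes, out of 10406 genes and 17871 probes kept in the whole series.

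HaCaT, the line used, consists of human skin keratinocytes that became immortal in culture. The histamine group was exposed to 1 µg/ml histamine for 24 h and the control group was labelled as control, with 3 Illumina HT-12 bead arrays each. Both groups grew in DMEM with 1.5 mM calcium and 10% fetal calf serum, a calcium level at which keratinocytes begin to stratify. The question was which genes of the line differ with histamine, and a single cell line lacks the mast cells that release histamine in skin. The labels do not say that the 3 samples of a group are separate cultures, so p-values here rest on a spread among samples that could be technical. The sample names of the histamine group belong to one numbered series and those of the control group to another, and an effect of that series cannot be told apart from histamine.

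Histamine acts on a family of G protein-coupled receptors. The H1 receptor couples to Gq, which activates phospholipase C beta. The lipase cuts a membrane phospholipid into inositol trisphosphate (IP3), which opens calcium channels of the endoplasmic reticulum, and diacylglycerol, which activates protein kinase C. When the store empties, STIM proteins open ORAI channels in the plasma membrane, and calcium pumps return the ion to the store, the Golgi apparatus or the outside. Calcium bound to calmodulin switches on CaM kinases and the phosphatase calcineurin, which sends NFAT factors to the nucleus. In the epidermis calcium is the main cue for keratinocyte differentiation, and mutations in the pump genes ATP2A2 and ATP2C1 cause the blistering skin disorders Darier disease and Hailey-Hailey disease.

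The median probe signal lay between 121 and 124 on the histamine arrays and between 122 and 141 on the control arrays, and 36.7% to 40.9% of probes were detected per array. All 11 keratinocyte markers with a probe, among them KRT5, KRT14 and DSP, were detected on every array. Skeletal muscle markers set histamine replicate 1 apart. Of 30 muscle markers 28 were detected on that array, against 10 and 12 on histamine replicates 2 and 3 and 3 or 4 on the control arrays. Their summed normalized intensity was 45380, 2444 and 2232 on histamine replicates 1, 2 and 3 and 1196 to 1253 on the control arrays. At least 2-fold above the control mean were 26 markers on histamine replicate 1 and 6 on each other histamine array. ACTA1, a muscle actin, measured 13.9, 9.51 and 9.19 with histamine and 4.52 to 4.66 in controls. Erythrocyte markers stood apart on histamine replicate 1, with a summed intensity of 971.5, against 211.4 and 232.1 on histamine replicates 2 and 3 and 191.6 to 197.4 on the control arrays. HBB, a hemoglobin chain, measured 9.02, 5.47 and 5.54 with histamine and 5.11 to 5.70 in controls. Results are therefore given also without histamine replicate 1 where that array touches them. Of the 9 mast cell and basophil markers with a probe, the defining genes TPSAB1, TPSB2, CPA3, CMA1, KIT and FCER1A were detected on no array. GATA2, on the same list, was detected on 2 histamine and 3 control arrays, and SIGLEC6 on 2 control arrays. The 9 leukocyte markers with a probe summed to 1081 to 1136 with histamine and 685.9 to 811.5 in controls, while PTPRC, CD3D, CD3E and TYROBP were detected on no array. CD14 was detected on all 6 arrays, with overlapping groups (log2 difference 0.16; adjusted p = 0.474). CD74 was detected on 1 histamine array and not tested, at 5.42 to 6.32 with histamine and 4.72 to 4.79 in controls. LYZ and MS4A1 were each detected on 1 histamine array and no control array, with overlapping groups, and were not tested. CD68, a lysosomal protein, rose, with 8.89 to 9.02 on the histamine arrays and 7.33 to 8.18 on the control arrays. The part of muscle, erythrocyte or leukocyte markers in the results that follow was not tested beyond leaving out histamine replicate 1. Leaving it out does not remove the muscle signal of the other histamine arrays.

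One route of histamine sensing was detected in these cells, that of the H1 receptor. HRH1, which encodes it, was detected on all 6 arrays. Its deposited signals were 186.6, 149.7 and 236.6 on the histamine arrays and 191.6, 253.1 and 185.8 on the control arrays. The probes of HRH2, the Gs-coupled receptor known from the stomach, HRH3, known from neurons, and HRH4, known from blood cells, were detected on no array. Detection p-values ranged from 0.526 to 0.984 for HRH2, from 0.839 to 0.905 for HRH3 and from 0.426 to 0.909 for HRH4. Each of these receptors was read by 1 probe, and a probe below background shows only that no signal was detectable on this array.

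**Figure D1:**
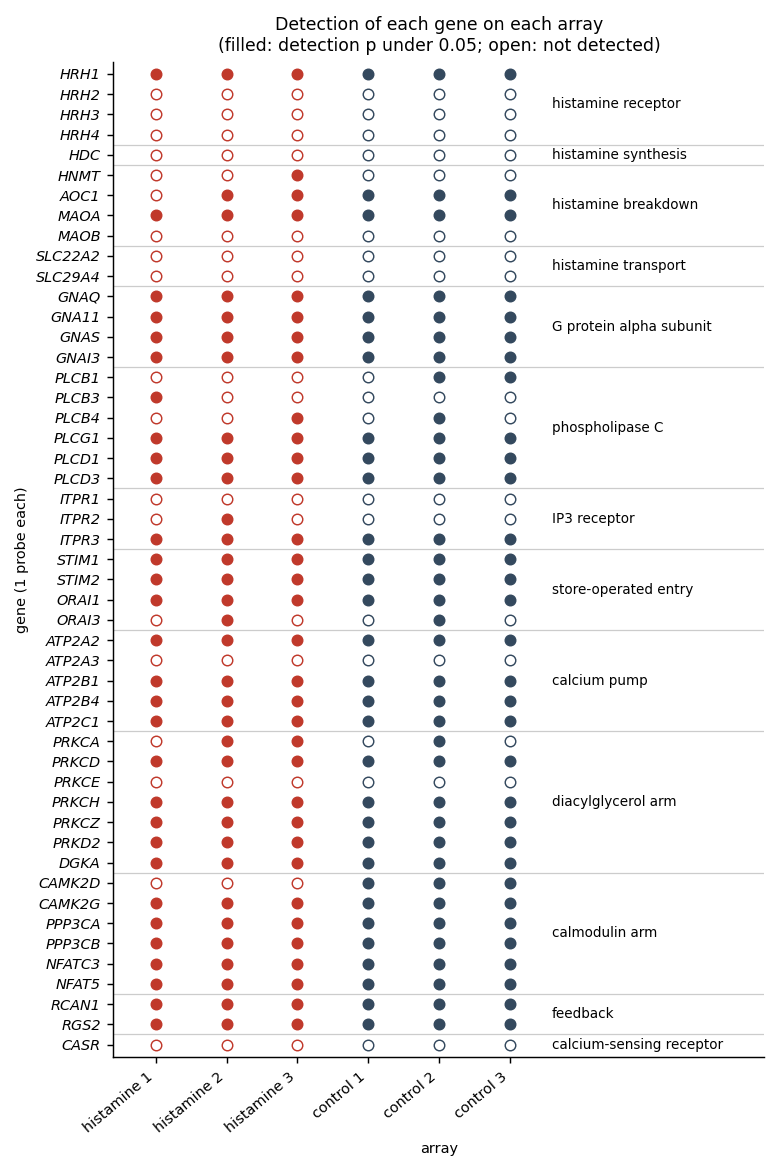
Each row is 1 of the 49 genes with a probe, grouped by role, and each column is 1 array, with the histamine arrays left of the control arrays. Filled circles mark a detection p-value under 0.05, shown for the tested probe of a gene or, where none was tested, for its brightest probe. Among the receptors HRH1 alone is filled, on all 6 arrays.

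The cells showed no detectable signal for making histamine. Of 4 breakdown genes 2 were tested, AOC1 and MAOA, and of these AOC1 alone acts on histamine itself. HDC, the decarboxylase that makes histamine from histidine, was detected on no array. Its detection p-value was 0.788, 0.143 and 0.209 on the histamine arrays and 0.910, 0.816 and 0.796 on the control arrays. AOC1, the diamine oxidase that oxidizes histamine outside cells, was detected on 2 of 3 histamine arrays and on all 3 control arrays. MAOA and MAOB encode the monoamine oxidases, the enzyme family that acts on the methylated product of histamine. Of these, MAOA was detected on all 6 arrays and MAOB on none. HNMT, which methylates histamine inside cells, had 5 probes. Probes of HNMT passed detection only on histamine replicate 3, where 2 of them had a p-value of 0.0455, and none was kept. SLC22A2 and SLC29A4, organic cation transporters that carry histamine, had 2 probes each, none detected on any array.

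Downstream of the receptor, members of nearly every step were detected on all 3 control arrays. They were all 4 G protein alpha subunits, 3 of 6 phospholipase C genes, 1 of 3 IP3 receptors, 3 of 4 store-operated entry genes and 4 of 5 calcium pumps. They were also 5 of 7 genes of the diacylglycerol arm, all 6 analysed genes of the calmodulin arm and both feedback genes. In all, 31 of the 49 genes were detected on every control array and 29 on every histamine array. PLCB1, PLCB3 and PLCB4, of the beta class of phospholipase C that Gq activates, fell below the detection filter. PLCB1 was detected on no histamine array and on 2 of 3 control arrays. PLCB3 was detected on 1 histamine array and no control array, and PLCB4 on 1 array of each group. Of the 6 phospholipase C genes among the 51, those detected on all 6 arrays were PLCG1, which receptor tyrosine kinases activate, and PLCD1 and PLCD3, of the calcium-stimulated delta class. PLCG2, PLCH2 and PLCXD1, from the wider pathway list, were detected on all 6 arrays too. PLCB2, of the beta class and on the same wider list, had a probe but fell below the detection filter. Of the channels that IP3 opens, ITPR3 was detected on all arrays, ITPR2 on 1 histamine array and ITPR1 on none. CASR, the receptor through which keratinocytes sense outside calcium, was detected on no array, with detection p-values from 0.521 to 0.922. In all, 17 genes with a probe fell below the detection filter, 11 of them detected on no array and 6 on at least 1.

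Between histamine and control, 5 of the 32 tested genes were lower with histamine, none was higher and 27 did not pass the test. The lower genes were GNAQ and GNA11, alpha subunits of the Gq class, STIM2, a sensor of calcium in the store, ATP2B4, a plasma membrane calcium pump, and ATP2C1, the Golgi calcium and manganese pump. All 5 were detected on all 6 arrays, and each differed by less than 2-fold. In the same limma fit 21.4% of all 10406 genes were called, 9.29% higher and 12.1% lower, so that 5 of 32, or 15.6%, lay near the background. Before adjustment, limma p-values were under 0.05 for 2 higher and 8 lower genes of the 32, against 13.8% higher and 20.6% lower of all genes. Leaving out histamine replicate 1 or control replicate 1 gave 3 lower genes, with 15.4% or 14% of all genes called, and leaving out histamine replicate 3 gave 2 lower and 1 higher (PRKD2), with 14.7% of all genes called. In 13 of the 32 genes, or 40.6%, the groups did not overlap, against 37.4% of all genes. The median log2 difference was -0.11 over the 32 genes and -0.08 over all genes. Lower values can mean less RNA per cell or fewer of the cells that hold it, which bulk RNA cannot tell apart.

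**Figure D2:**
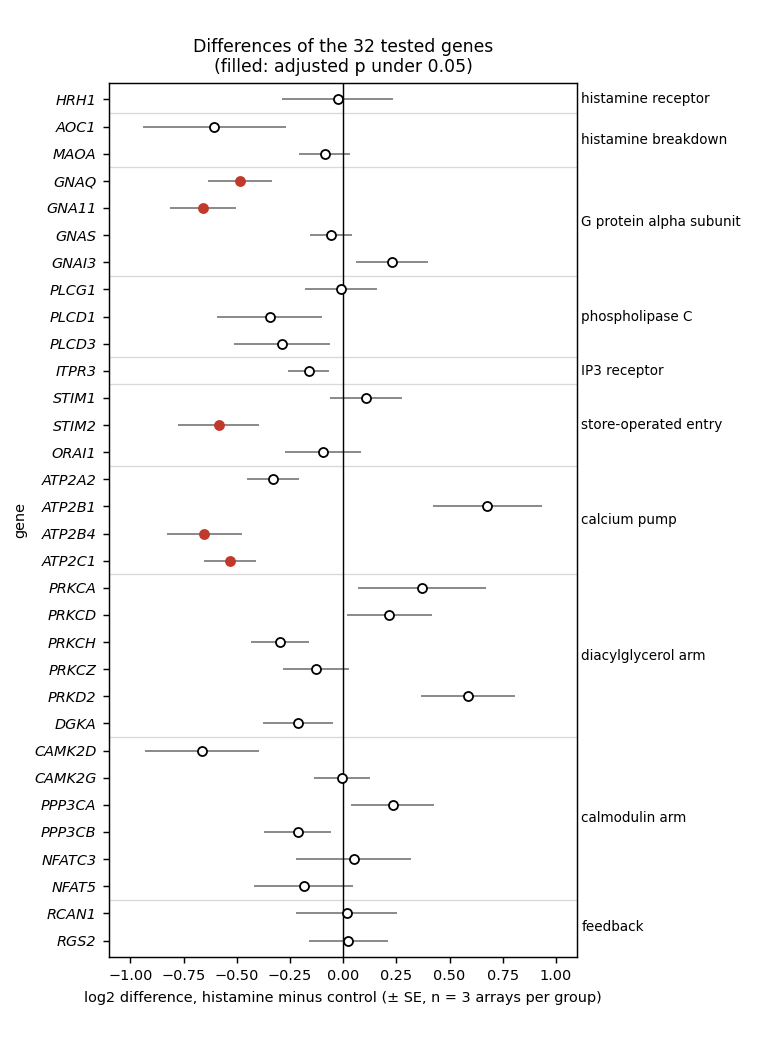
The log2 difference, histamine minus control, is plotted with its SE for the 32 tested genes, grouped by role, with 3 arrays per group. Filled points have an adjusted p-value under 0.05, and all 5 of them lie below 0, between -0.48 and -0.66.

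HRH1 did not differ detectably. Its normalized log2 intensity was 6.65, 5.96 and 7.11 on the histamine arrays and 6.57, 6.75 and 6.48 on the control arrays. The histamine arrays spread more widely (SD 0.58, against 0.14 in controls, n = 3 each) and lay on both sides of them. The log2 difference was -0.03 ± 0.26 (SE; adjusted p = 0.954), with a 95% confidence interval from -0.58 to 0.53. Its sign changed with single arrays, and without histamine replicate 2 the difference was 0.28.

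AOC1 measured 5.42, 7.03 and 6.94 on the histamine arrays and 7.10, 6.65 and 7.44 on the control arrays. The low value came from histamine replicate 1, where AOC1 was not detected (detection p-value 0.0558). Whether the strong muscle signal of that array bears on it was not tested. The log2 difference was -0.61 ± 0.33 (SE; adjusted p = 0.212) over all arrays and -0.08 without that array, while with arrays scaled to their medians AOC1 was called lower (adjusted p = 0.0281). MAOA measured 9.98, 10.13 and 10.12 on the histamine arrays and 10.24, 9.97 and 10.28 on the control arrays. These values overlap, and the log2 difference was -0.09 ± 0.12 (SE; 95% confidence interval -0.34 to 0.17; adjusted p = 0.642).

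GNAQ and GNA11, of the Gq class, were lower with histamine, and GNA15, a further alpha subunit of that class outside the 51 genes, was not. GNA15 measured 10.71, 10.78 and 10.71 with histamine and 10.62, 10.41 and 10.52 in controls. Its histamine arrays all lay above its control arrays, and the difference of 0.22 ± 0.11 did not pass (adjusted p = 0.162). GNA11 measured 8.02, 7.93 and 8.20 on the histamine arrays and 8.86, 8.73 and 8.52 on the control arrays, so that every histamine array lay below every control array. It fell by 0.66 ± 0.15 (SE; adjusted p = 0.00613), or 1.58-fold. Its dimmer probe measured 6.17, 6.16 and 5.96 with histamine and 6.32, 6.37 and 6.65 in controls, without overlap, and its difference of -0.35 ± 0.23 did not pass. GNAQ measured 8.33, 8.39 and 8.25 on the histamine arrays and 8.95, 8.56 and 8.91 on the control arrays. It fell by 0.48 ± 0.15 (SE; adjusted p = 0.0295), or 1.40-fold, with no overlap. The GNAQ call was lost when histamine replicate 1 (adjusted p = 0.0654) or 3, or control replicate 1 or 3, was left out, with differences of -0.41 to -0.61 over the 6 such fits. It was also lost with no filter on dim probes (adjusted p = 0.0547) and without the intensity trend (adjusted p = 0.0610). The GNA11 call was kept in all 16 alternatives. GNAS, the alpha subunit of Gs through which H2 receptors act, measured 13.19, 13.31 and 13.15 with histamine and 13.40, 13.33 and 13.09 in controls (-0.06 ± 0.10; adjusted p = 0.714). GNAI3, of the inhibitory class that H3 and H4 receptors use, measured 7.93, 7.95 and 8.21 with histamine and 7.61, 7.87 and 7.91 in controls. Its groups did not overlap, and the difference of 0.23 ± 0.17 did not pass (adjusted p = 0.350).

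The promoter of GNA11, the gene whose call held throughout, is shown together with the 3 promoters that RefSeq lists for ATP2C1, whose probes went opposite ways, as described further on. Each sequence runs from 250 bases before to 50 bases after a gene start in RefSeq (GRCh38.p14), and capitals mark the GC box GGGCGG or its reverse complement CCGCCC, overlapping matches included. Of the 5 called genes 4 have a promoter in the table.
GNA11, chr19:3094112-3094411, plus strand: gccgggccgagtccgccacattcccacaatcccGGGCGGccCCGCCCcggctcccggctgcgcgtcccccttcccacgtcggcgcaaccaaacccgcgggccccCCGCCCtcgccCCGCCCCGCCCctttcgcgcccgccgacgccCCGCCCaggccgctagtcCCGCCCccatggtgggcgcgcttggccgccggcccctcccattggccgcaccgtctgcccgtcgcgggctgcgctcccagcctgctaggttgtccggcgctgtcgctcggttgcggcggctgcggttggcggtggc
ATP2C1 first start, chr3:130850345-130850644, plus strand: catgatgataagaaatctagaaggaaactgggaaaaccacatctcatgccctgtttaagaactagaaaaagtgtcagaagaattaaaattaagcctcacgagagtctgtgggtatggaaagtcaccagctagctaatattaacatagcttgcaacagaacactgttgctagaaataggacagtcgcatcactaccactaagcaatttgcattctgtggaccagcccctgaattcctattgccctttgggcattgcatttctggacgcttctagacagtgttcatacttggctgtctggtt
ATP2C1 next start, chr3:130893834-130894133, plus strand: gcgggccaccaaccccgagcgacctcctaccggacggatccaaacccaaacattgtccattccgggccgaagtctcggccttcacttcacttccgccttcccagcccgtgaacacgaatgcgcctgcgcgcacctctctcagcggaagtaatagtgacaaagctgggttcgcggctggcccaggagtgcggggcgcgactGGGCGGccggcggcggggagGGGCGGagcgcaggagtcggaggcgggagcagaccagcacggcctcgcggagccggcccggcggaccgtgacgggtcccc
ATP2C1 last start, chr3:130894300-130894599, plus strand: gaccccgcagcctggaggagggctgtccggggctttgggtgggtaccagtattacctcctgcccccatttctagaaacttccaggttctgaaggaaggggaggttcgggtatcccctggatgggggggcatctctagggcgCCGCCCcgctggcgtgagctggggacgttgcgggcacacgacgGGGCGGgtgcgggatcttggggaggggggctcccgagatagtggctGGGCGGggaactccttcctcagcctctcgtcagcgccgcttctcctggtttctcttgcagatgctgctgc
The GNA11 window held 7 GC boxes at 79.3% G and C, and the ATP2C1 windows held 0, 2 and 3 at 42.0%, 70.0% and 65.7%. A GC box on either strand occurred in 45.0% of the 35116 promoters of the same length in the table, whose median G and C content was 58.7%. The NFAT core GGAAA or TTTCC occurred in 61.2% of all promoters. It was absent from the GNA11 window, occurred 3 times in the first ATP2C1 window and was absent from the other ATP2C1 windows. The cAMP response element TGACGTCA was in 1.85% of all promoters and in none of these 4. These matches describe the letters in the windows only.

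**Figure D3:**
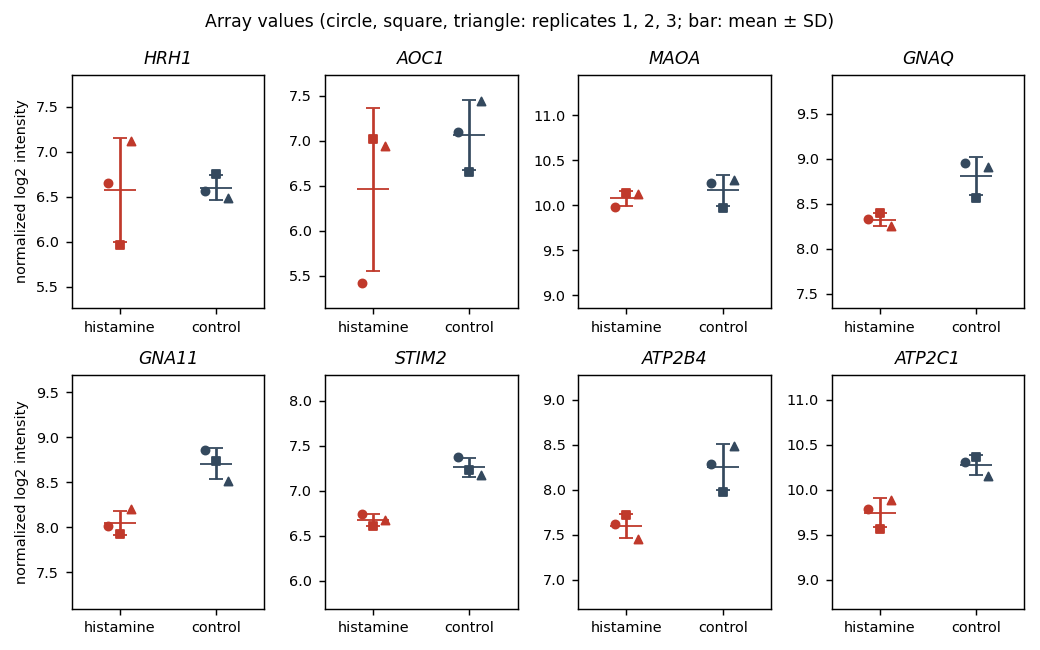
Normalized log2 intensity of 8 genes is shown on each array, histamine left of control, with the symbols marking replicates 1 to 3 and the bar the mean ± SD (n = 3 per group). GNAQ, GNA11, STIM2, ATP2B4 and ATP2C1 show no overlap between the groups, while HRH1, AOC1 and MAOA overlap.

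The phospholipase C genes did not pass on their brightest probes. PLCG1 measured 8.48, 7.93 and 8.24 with histamine and 8.09, 8.29 and 8.30 in controls (-0.01 ± 0.17; adjusted p = 0.970). Its dimmer probe measured 6.03, 5.99 and 6.67 with histamine and 4.89, 5.48 and 5.08 in controls, and was detected on all 3 histamine arrays and 1 control array. When each kept probe was fitted singly, that PLCG1 probe was called higher (1.08 ± 0.28; adjusted p = 0.0106), and the mean of both probes gave 0.53 with no call. The histamine arrays alone met the detection filter for the dimmer probe, a selection that favours its call. Since 2 of its 3 control values are not above background, the size of its difference is uncertain. The call of the dimmer probe was lost without histamine replicate 3 (adjusted p = 0.0717). PLCD1 measured 5.64, 5.78 and 6.00 with histamine and 6.40, 6.00 and 6.05 in controls (-0.35 ± 0.25; adjusted p = 0.340). PLCD3 measured 6.88, 7.85 and 7.07 with histamine and 7.67, 7.58 and 7.41 in controls (-0.29 ± 0.23; adjusted p = 0.388). Neither delta isoform passed, and the PLCD3 groups overlap. PLCB1, below the filter, measured 4.81, 5.22 and 5.18 with histamine and 5.34, 5.56 and 5.64 in controls on its brighter probe, all near background.

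Of the store and its refilling, STIM2 alone was called. ITPR3 measured 11.59, 11.54 and 11.55 with histamine and 11.78, 11.70 and 11.68 in controls, the histamine arrays all lower. Its log2 difference of -0.16 ± 0.10 did not pass (95% confidence interval -0.36 to 0.04; adjusted p = 0.240). STIM2 measured 6.74, 6.60 and 6.68 on the histamine arrays and 7.37, 7.24 and 7.17 on the control arrays, without overlap. It fell by 0.59 ± 0.19 (SE; adjusted p = 0.0376), or 1.50-fold. The other kept STIM2 probe, detected on 2 arrays of each group, gave -0.11 ± 0.32. The STIM2 call was lost with any 1 array left out except control replicate 3. Keeping dim probes in the fit (adjusted p = 0.148) or taking the mean of its probes (-0.35; adjusted p = 0.263) ended the call too. STIM1, the main sensor of store depletion, measured 7.92, 8.39 and 8.23 with histamine and 7.93, 8.25 and 8.03 in controls (0.11 ± 0.17; adjusted p = 0.682). ORAI1, the channel it opens, measured 7.65, 7.43 and 7.39 with histamine and 7.76, 7.56 and 7.43 in controls (-0.09 ± 0.18; adjusted p = 0.742). In both genes the groups overlap. The brightest ORAI3 probe was detected on 1 array of each group.

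Of the 5 calcium pumps ATP2B4 and ATP2C1 were called lower. ATP2B4 measured 7.62, 7.72 and 7.45 on the histamine arrays and 8.28, 7.98 and 8.49 on the control arrays. It fell by 0.65 ± 0.17 (SE; adjusted p = 0.0133), or 1.57-fold, and its other kept probe gave -0.66 ± 0.21 (adjusted p = 0.0300, each probe fitted singly), a call lost in 6 of 15 alternatives. The call of its brightest probe was lost without histamine replicate 3 (adjusted p = 0.0552) and kept without histamine replicate 1. ATP2B1, a pump of the same plasma membrane family, was not called. It measured 6.15, 6.40 and 6.59 with histamine and 5.95, 5.33 and 5.82 in controls, without overlap, and its log2 difference of 0.68 ± 0.25 did not pass (adjusted p = 0.0655). Its other kept probe gave 0.09 ± 0.30. The difference between the pumps was not tested.

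ATP2A2, the pump of the endoplasmic reticulum that is also abundant in slow muscle, measured 9.82, 9.75 and 9.62 with histamine and 10.20, 10.07 and 9.91 in controls. Its difference of -0.33 ± 0.12 (SE) did not pass (adjusted p = 0.0609), with all histamine arrays below all control arrays, and was -0.37 without histamine replicate 1. With median scaling and without control replicate 3 it passed (adjusted p = 0.0332 and 0.0262). Its other kept probes, fitted singly, gave 0.10 ± 0.17 and -0.20 ± 0.13 with overlapping groups, and neither passed. The mean of its 3 kept probes gave -0.14 (adjusted p = 0.406). The ATP2A2 probe that gave 0.10 was highest on histamine replicate 1, the array with the strongest muscle signal. It measured 10.04 there, against 9.47 and 9.24 on the other histamine arrays and 9.28 to 9.63 in controls. The probe that gave -0.20 was lowest on histamine replicate 1, with 9.60 there against 9.74 and 9.85 on the other histamine arrays. Whether muscle RNA has a part in these values was not tested. ATP2A3 was detected on no array.

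ATP2C1 had 3 kept probes, which gave 3 different answers. The brightest measured 9.78, 9.56 and 9.88 on the histamine arrays and 10.31, 10.36 and 10.15 on the control arrays. It fell by 0.53 ± 0.12 (SE; adjusted p = 0.00543), or 1.45-fold, and by 0.55 without histamine replicate 1. The second measured 8.34, 8.15 and 8.27 with histamine and 8.30, 8.52 and 8.61 in controls (-0.22 ± 0.16), which did not pass. The third measured 8.20, 8.03 and 8.44 with histamine and 7.13, 7.62 and 7.93 in controls, and was called higher when probes were fitted singly (0.66 ± 0.20; adjusted p = 0.0271). On the mean of the 3 probes ATP2C1 differed by -0.03, with no call. The call of the third probe was lost with median scaling, without the intensity trend and without histamine replicate 1 or 3 or control replicate 1 or 2. Which transcripts of ATP2C1 each probe reads was not tested.

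**Figure D4:**
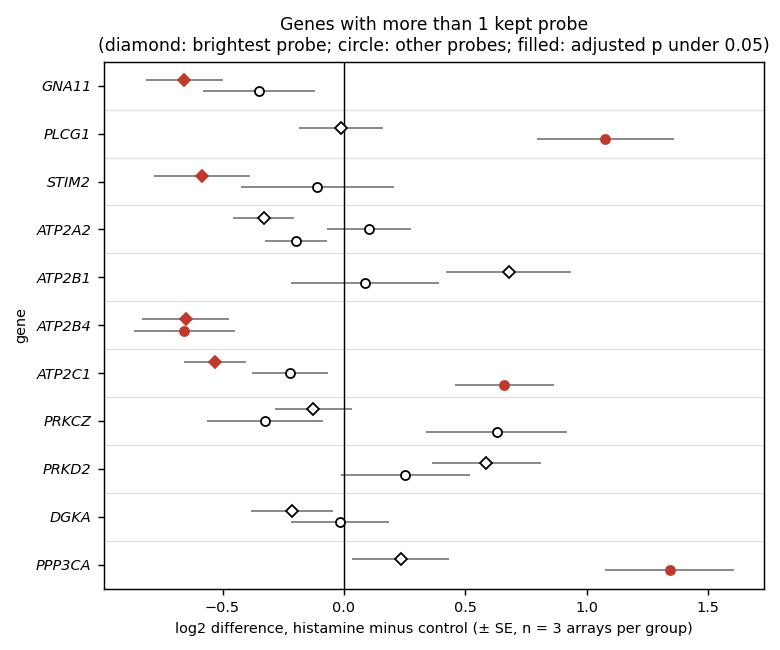
The log2 difference, histamine minus control, with its SE is shown for every kept probe of the 11 genes that have more than 1, fitted singly (3 arrays per group). Diamonds are the brightest probe of a gene and filled symbols passed at an adjusted p-value under 0.05; those of ATP2C1 lie on both sides of 0, at -0.53 and 0.66.

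In the diacylglycerol arm none of 6 tested genes passed in limma, and 1 higher and 1 lower gene had an unadjusted p-value under 0.05. PRKD2, a kinase that protein kinase C activates, measured 7.39, 7.25 and 6.79 with histamine and 6.71, 6.32 and 6.65 in controls. The groups did not overlap, and the difference of 0.59 ± 0.22 (SE) did not pass (adjusted p = 0.0642). It was 0.46 without histamine replicate 1 and passed with a stricter detection filter (adjusted p = 0.0498) or without histamine replicate 3 (adjusted p = 0.0371). The other kept PRKD2 probe gave 0.25 ± 0.27 with overlapping groups. The mean of both probes gave 0.42 (adjusted p = 0.179) and median scaling 0.40 (adjusted p = 0.282), with no call. PRKCH, the eta isoform known from differentiating epidermis, measured 8.82, 8.69 and 8.91 with histamine and 8.99, 9.10 and 9.22 in controls, a difference of -0.30 ± 0.14 (adjusted p = 0.127). PRKCD, the delta isoform linked to keratinocyte differentiation, measured 7.52, 7.91 and 7.33 with histamine and 7.43, 7.11 and 7.59 in controls (0.22 ± 0.20; adjusted p = 0.471). PRKCZ, grouped with this arm, is an atypical isoform that needs neither calcium nor diacylglycerol. It measured 8.41, 8.89 and 8.47 with histamine and 8.74, 8.64 and 8.79 in controls. The PRKCZ difference was -0.13 ± 0.15 (adjusted p = 0.596). PRKCD and PRKCZ overlap between the groups, and the 2 other kept PRKCZ probes gave -0.33 and 0.63 without passing. PRKCA, the calcium-dependent alpha isoform, was detected on 2 histamine arrays and 1 control array, with 0.37 ± 0.30. DGKA, which removes diacylglycerol, measured 8.33, 8.49 and 8.80 with histamine and 8.78, 8.99 and 8.49 in controls (-0.21 ± 0.17; adjusted p = 0.384). PRKCE, the epsilon isoform, was detected on no array.

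In the calmodulin arm none of 6 tested genes passed in limma on its brightest probe, and CAMK2D was the 1 gene with an unadjusted p-value under 0.05. CAMK2D, a CaM kinase II subunit, measured 5.00, 5.04 and 5.10 on the histamine arrays and 5.74, 5.68 and 5.72 on the control arrays. It was detected on no histamine array and on every control array, so it entered the test through its control arrays alone. The difference did not pass (adjusted p = 0.0847). Without the intensity trend its adjusted p was 0.0108, which the same selection favours. Its other 3 probes were detected on no array. CAMK2G, another subunit, measured 9.42, 9.09 and 9.21 with histamine and 9.16, 9.27 and 9.30 in controls. Its groups overlap, and the difference was -0.0066 ± 0.13 with a 95% confidence interval of -0.29 to 0.27.

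PPP3CA, a catalytic subunit of calcineurin, measured 7.32, 7.00 and 7.06 with histamine and 7.02, 6.86 and 6.80 in controls on its brightest probe (0.23 ± 0.20; adjusted p = 0.421). Its other probe measured 7.01, 6.32 and 6.52 with histamine and 5.18, 5.58 and 5.06 in controls, without overlap, and was detected on all 3 histamine arrays and on 1 control array. The probe had enough detected arrays through the histamine group alone, a selection that favours its call. The size of its difference is uncertain, since 2 of its 3 control values are not above background. Fitted singly, the probe was called higher (1.34 ± 0.27; adjusted p = 0.00146), and without histamine replicate 1 it still was (1.15; adjusted p = 0.0119). The mean of both PPP3CA probes, which includes that probe, gave 0.79 and passed (adjusted p = 0.0155), so the same selection bears on it. PPP3CB, the beta subunit, measured 8.41, 8.02 and 8.32 with histamine and 8.56, 8.52 and 8.32 in controls (-0.21 ± 0.16; adjusted p = 0.356). NFATC3, a factor that calcineurin activates, measured 6.36, 6.05 and 6.72 with histamine and 6.88, 5.96 and 6.14 in controls (0.05 ± 0.27; adjusted p = 0.915). NFAT5, which responds to osmotic stress rather than calcineurin, measured 6.12, 6.79 and 6.63 with histamine and 6.88, 6.49 and 6.73 in controls (-0.19 ± 0.23; adjusted p = 0.604). PPP3CB, NFATC3 and NFAT5 overlap between the groups.

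The feedback genes of calcium and Gq signals showed no detectable difference at 24 h on their tested probes. RCAN1, a calcineurin inhibitor that NFAT induces, measured 6.65, 6.24 and 6.88 with histamine and 6.60, 6.85 and 6.28 in controls (0.02 ± 0.24; 95% confidence interval -0.48 to 0.51; adjusted p = 0.971). A second RCAN1 probe, below the filter, measured 5.37, 5.78 and 5.28 with histamine and 5.05, 4.71 and 4.99 in controls. All its histamine values lay above its control values, but it was detected on 1 histamine array alone and was not tested. Which RCAN1 transcripts each probe reads was not tested either. RGS2, which shuts off Gq, measured 8.52, 8.45 and 8.73 with histamine and 8.07, 8.67 and 8.89 in controls (0.02 ± 0.19; 95% confidence interval -0.37 to 0.41; adjusted p = 0.942).

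Over all 46 kept probes of the 51 genes, fitted singly, 3 were called higher and 6 lower. Of all 17871 kept probes 11% were called higher and 10.9% lower, 21.9% in all. The higher probes were the dimmer probes of PLCG1 and PPP3CA, both dropped by the stricter filter (detection p-values under 0.01 on all 6 arrays), and the third of ATP2C1, and the lower ones those of the 5 genes named, ATP2B4 by 2 probes. Thus no gene of the group was called higher by its brightest probe, and 3 were by another.

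Other genes of the histamine, G protein, calcium and cyclic AMP pathways, 126 in number, numbered 68 tested, of which 7 were higher, 8 lower and 53 not past the test. Their called share of 22.1% lay beside the 21.4% of all genes, and their median log2 difference was -0.04. ALDH2, an aldehyde dehydrogenase able to oxidize the aldehydes that histamine breakdown yields, rose by 1.26 ± 0.19 (adjusted p = 0.000163). PTGER4 and PTGER2, prostaglandin E receptors coupled to Gs, rose by 0.91 ± 0.18 and 0.90 ± 0.19. INPP1, an inositol polyphosphate phosphatase, rose by 0.53 ± 0.13, and SLC8B1, a mitochondrial sodium and calcium exchanger, by 0.51 ± 0.15. The calls of INPP1 and SLC8B1 were lost with median scaling, without the intensity trend and when single arrays were left out. PLCE1, the epsilon phospholipase C, was not above background on any histamine array and entered the test through its 3 control arrays alone. It was called at least 2.41-fold lower with histamine (adjusted p = 0.000234), a p-value that this selection favours. CAMKK2, a kinase that calmodulin activates, was detected on 1 histamine array, and its 3 control arrays alone met the detection filter. Its other histamine values are not above background, so its fall of 1.19 ± 0.28 is uncertain in size, and the selection favours its call. The call was lost without control replicate 2 (adjusted p = 0.0607). CAMK2N1, an inhibitor of CaM kinase II, fell by 1.11 ± 0.13 (adjusted p = 1.3e-05). PRKAR2A, a regulatory subunit of protein kinase A, fell by 0.97 ± 0.22, and CDS1, which makes the lipid CDP-diacylglycerol, fell by 0.87 ± 0.15.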

How the data were processed

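Total RNA of HaCaT cells, 3 histamine and 3 control samples, was measured on Illumina HT-12 arrays. The deposited intensity of a probe is its mean bead signal, per the file headers, and was neither background subtracted nor normalized. The deposited detection p-values rank it among negative control beads. The authors' processed table holds log2 values with the same quantiles on each array (median 7.46), by a transform that no source used here names. GenomeStudio 2010.1 and lumi are named per the submitters' processing notes.

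Signals were background corrected with normexp in limma 3.58.1 (R 4.3.3), taking the negative control distribution from the detection p-values and adding an offset of 16, which compresses folds of dim probes. Quantile normalization and log2 followed. Of 47322 probes, 30112 carry 1 gene symbol, 8 several and 17202 none. Symbols came from the platform annotation (30073 matched by Entrez identifier, 0 updated). Probes were kept as described, and the brightest kept probe stood for its gene. A 2-group limma fit with an intensity trend was made over 10406 genes, and again over 17871 kept probes singly, with Benjamini-Hochberg adjusted 2-sided p-values and a threshold of 0.05. Differences are histamine minus control. Where all arrays of 1 group are below background, a bound is given, from the lowest detected value of each array.

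The genes described, the lists, the marker genes and the rule for named genes were chosen with earlier results of these data known. By that rule all 51 genes are accounted for, and of other pathway genes the 5 largest increases and 5 largest decreases past the threshold are named. Alternatives were no background correction, the processed table, an offset of 50, median scaling, no filter, a filter at detection p-values under 0.01 on all 6 arrays (the stricter filter), the mean of a gene's kept probes, no intensity trend, robust empirical Bayes, the replicate number as a block, and leaving out each array. The precision is limited by 3 arrays per group.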

Additional observations from a re-analysis of the deposited data

How the results depend on the processing

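Values and counts of calls were recomputed under 16 alternatives where these could give one. The stricter filter dropped AOC1, PLCD1, ATP2B1, PRKCA, CAMK2D, PLCE1, CAMKK2 and the dimmer probes of PLCG1 and PPP3CA, and the mean of kept probes gives no value for single probes. The 5 genes called lower stayed called without background correction, with the processed table, with an offset of 50, with median scaling, with the stricter filter and with robust empirical Bayes. With arrays left out in turn, 2 to 5 of the genes were called lower and 0 to 1 higher, 2 to 6 of their probes were called lower and 2 to 3 higher, and of the other pathway genes 5 to 10 were called lower and 3 to 9 higher. Over all genes these fits called 595 to 1456 lower and 623 to 1088 higher, the lowest of both without control replicate 2, as were the 5 and 3 of the other pathway genes. All genes called lower numbered 764 without control replicate 1, 819 without histamine replicate 1 and 815 without histamine replicate 3. Median scaling moved the median log2 difference of all genes from -0.08 to -0.26. It called 456 genes higher, so that the higher share of all calls was 20.1% against 43.5%, and 3 other pathway genes higher and 13 lower. With no filter, 794 genes, 3 of the genes described and 3 of their probes were called lower, and with the stricter filter 1 gene (PRKD2) and 1 probe were called higher. On the mean of the kept probes 1 gene was higher (PPP3CA) and 3 lower. Without the intensity trend 638 genes were higher, 735 lower, and 3 other pathway genes higher.

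Genes that did not pass changed sign as follows. HRH1 gave 0.0047 without background correction and 0.0074 in the processed table. With median scaling STIM1 gave -0.086, NFATC3 -0.10, RCAN1 -0.18 and RGS2 -0.17, and on the mean of probes PLCG1 gave 0.53 and PRKCZ 0.059. With arrays left out in turn, HRH1 ranged from -0.30 to 0.28, PLCG1 from -0.14 to 0.13, CAMK2G from -0.097 to 0.069, NFATC3 from -0.14 to 0.33, NFAT5 from -0.32 to 0.0089, GNAS from -0.15 to 0.0057, RCAN1 from -0.13 to 0.19 and RGS2 from -0.22 to 0.20. The cause was not tested.

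Arrays with the same replicate number did not deviate together (correlations across genes of -0.03, -0.03 and -0.05). With the replicate number as a block 4 of the 5 genes remained called, and STIM2 had an adjusted p of 0.0586. Genes such as HRH2, HDC and PLCB1 lie at or near background, where differences could not be measured.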
